A study of Homo sapiens with 20 samples.

Results

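Adherent SUM159PT cells of the KOd pool were compared with adherent wild-type SUM159PT cells. SUM159PT is an established triple-negative breast cancer line of mesenchymal type. The comparison took 6 of the 20 libraries, chosen by their titles: 3 labelled KOd_2D and 3 labelled wt_2D, with replicate letters A, B and C in each group. KOd is an oligoclonal pool, made by mixing several clones in which 2 guide RNAs were used to delete exon 1 of NNMT. Both groups grew attached to plastic in Ham's F12 medium with serum, insulin, hydrocortisone and antibiotics. The sources do not say that the wild-type cells passed through cloning, so traits of the mixed clones and loss of NNMT cannot be told apart in these libraries. The labels do not say whether replicates were separate cultures, and p-values then measure only the spread between libraries, which may be technical. Beside these stand 3 adherent libraries of a second pool, labelled KOs, made with 1 guide RNA at the NNMT start site, and 3 libraries each of KOd and wild type grown as secondary tumorspheres (3D) in DMEM and F12 with B27, EGF, basic FGF and antibiotics.

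NNMT, nicotinamide N-methyltransferase, moves a methyl group from S-adenosylmethionine to nicotinamide, so it uses the cell's methyl donor and removes a precursor of NAD. Several of the genes described below belong to a pathway of another kind, the integrated stress response. In that response, kinases that sense amino acid shortage, unfolded protein or other stress slow general translation while the transcription factor ATF4 is made more efficiently. ATF4 then activates genes for amino acid import, serine and asparagine synthesis and stress signalling, through promoter sites named C/EBP-ATF response elements. Heat shock factor HSF1 acts through another site, the heat shock element, on genes of protein-folding chaperones.

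The 6 libraries held between 27432256 and 28096404 counts. Ribosomal RNA genes took 2.99% to 6.85% of them in wild type and 5.27% to 6.79% in KOd. Levels are given as CPM (counts scaled to a common library size) after scaling with TMM factors, which lay between 0.929 and 0.978 in wild type and between 1.035 and 1.044 in KOd. Log2 CPM values correlated across genes with r from 0.992 to 0.995 within the groups and from 0.959 to 0.968 between them. The identity of the line was visible in both groups. The intermediate filament gene VIM stood at 4846, 5023 and 5329 CPM in wild type and 4010, 3843 and 4535 in KOd, and the keratin genes KRT7 and KRT8 were present. The epithelial cadherin CDH1 was at 0 in all wild-type libraries with a highest value of 0.105 CPM in KOd, and PGR, the progesterone receptor gene, was at 0 in all 6. Of 15 leukocyte markers 13 stayed under 1 CPM in every library and 6 were at 0, with a summed level of 25.2 to 32.5 CPM in wild type and 43.1 to 51.6 in KOd, of which the lysosomal gene CD68 made up most. Of 10 neural markers 6 stayed under 1 CPM, and their sum, mainly the tubulin gene TUBB3, was 326 to 445 CPM in wild type and 132 to 146 in KOd. Of 10 endothelial markers 6 stayed under 1 CPM, with sums of 9.44 to 11.9 CPM in wild type and 12.3 to 13.4 in KOd.

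NNMT itself was far lower in the pool. NNMT (chr11:114257806-114313536, Entrez 4837) stood at 120, 128 and 102 CPM in the wild-type libraries and at 4.39, 4.64 and 4.62 in KOd, so the groups were wide apart. The log2 fold change of NNMT was -4.68 ± 0.21 (SE of the model; adjusted p = 3.7e-11). All adjusted p-values come from edgeR's quasi-likelihood test with Benjamini-Hochberg adjustment over 16323 tested genes, and "rose" or "fell" is used where that value was under 0.05. In tumorspheres the change of NNMT was -4.26 ± 0.20, and the test of the difference between the cultures gave an adjusted p of 0.25. In the adherent libraries labelled KOs NNMT stood at 130, 113 and 76.0 CPM, with a log2 fold change of -0.14 (adjusted p = 0.52). NNMT mRNA thus gives no check of the KOs label, and these libraries are called "labelled KOs" below. They also differ in depth, with 39789580 to 43744817 counts, and in ribosomal RNA, with 0.926% to 2.70%.

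Genes around NNMT on chromosome 11 were examined within 1 Mb on each side. CADM1 (chr11:115169236-115504415), a cell adhesion gene of the immunoglobulin family, had 27.5, 29.7 and 55.8 CPM in wild type and no count in any KOd library, 2970 counts against 0. With a floor of 3 counts over the group, CADM1 was at least 1079-fold lower in KOd. CADM1 was also near 0 in the labelled KOs libraries, with 0.119, 0 and 0 CPM, and in KOd tumorspheres, with 0.275, 0.160 and 0.035 CPM. No neighbour other than CADM1 and NNMT fell by more than 1 on the log2 scale. USP28, a ubiquitin protease gene, fell by 0.26, while RBM7 (0.54), TTC12 (0.65), C11orf71 (0.53) and the serotonin receptor gene HTR3A (1.58, from levels under 1 CPM in all 6 libraries) rose. REXO2, ZW10, ZBTB16, NCAM1, ANKK1 and DRD2 did not pass. USP28 no longer passed without wild-type replicate A or KOd replicate B or C, C11orf71 without wild-type replicate A or KOd replicate C, and HTR3A without wild-type replicate B or C or KOd replicate A or C.

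Across all genes, 7280 of 16323 passed (44.6%), with 3611 that rose (22.1%) and 3669 that fell (22.5%). With scaling by library totals alone, 7332 passed, of which 61.24% rose against 49.6% with TMM factors, and the median log2 fold change of all genes moved from 0.01 to 0.12. Many of the changes were small: 31.43% of the genes that passed changed by less than 0.5 on the log2 scale. At least 2-fold changes were held by 1216 genes that rose (7.45%) and 1050 that fell (6.43%). In 10227 genes (62.7%) the 3 libraries of one group did not overlap with those of the other. These shares are the background against which counts of gene lists are read below.

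**Figure D1:**
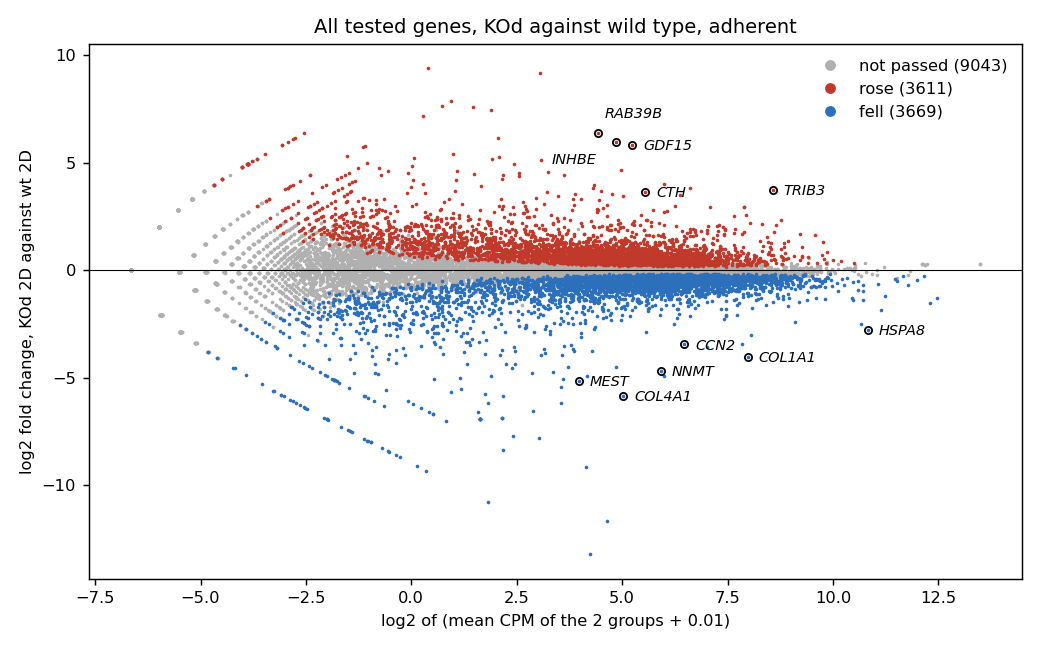
Each point is 1 of the 16323 tested genes; the horizontal axis gives the log2 of the mean CPM of the 2 groups plus 0.01, the vertical axis the log2 fold change of KOd against wild type, and colours mark genes that rose (3611), fell (3669) or did not pass (9043). NNMT lies near -4.68 with COL1A1 and COL4A1 among the large falls, and RAB39B, INHBE and GDF15 are marked among the rises.

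The largest rises, where the groups did not overlap and the mean log2 CPM reached 2, were those of RAB39B, INHBE and GDF15. RAB39B, a small GTPase of vesicle traffic, went from 0.878, 0.261 and 0.353 CPM in wild type to 33.9, 39.3 and 54.0 in KOd, a log2 fold change of 6.39 ± 0.33 (adjusted p = 2.1e-10). INHBE, which encodes an activin subunit, had 0.988, 1.01 and 0.746 CPM against 45.5, 56.9 and 69.8, a change of 5.97 ± 0.56 (adjusted p = 1.8e-07). GDF15, a stress-induced cytokine, had 1.02, 1.60 and 1.29 CPM against 56.6, 68.6 and 98.6, a change of 5.83 ± 0.30 (adjusted p = 2.5e-10). For each of these 3 genes every KOd library lay more than 20 CPM above every wild-type library. Next came CHAC1 (4.66), ECM2 (4.42), SESN2 (4.01), NIBAN1 (3.95), the netrin receptor gene UNC5B (3.81), the tight junction gene CLDN1 (3.80), TRIB3 (3.75), LOC100128317 (3.66), CTH (3.64), SGPP2 (3.61), TES (3.55) and the cholesterol exporter gene ABCG1 (3.52).

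Among the largest falls were chains of basement membrane and fibrillar collagen. COL4A1 went from 78.9, 76.3 and 37.4 CPM in wild type to 1.44, 1.40 and 0.518 in KOd, a log2 fold change of -5.84 ± 0.39 (adjusted p = 3.0e-09). COL4A2, which lies next to COL4A1 on chromosome 13 and encodes the partner chain, had 66.1, 64.5 and 36.5 CPM against 2.88, 3.04 and 1.31, a change of -4.53 ± 0.28 (adjusted p = 1.7e-09). In both genes wild-type replicate C was the lowest wild-type library and KOd replicate C the lowest KOd library, and the groups stayed far apart. The imprinted gene MEST fell by 5.16, the X-linked cancer-testis genes MAGEA11 and MAGEC1 by 5.06 and 4.92, PARM1 by 4.91, COL4A4 by 4.51 and COL1A1 by 4.05. PDE1C (-3.97), JCAD (-3.95), the secreted peptide gene APLN (-3.84), HSPA1A (-3.75), NPR3 (-3.74) and NAAA (-3.68) followed.

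**Figure D2:**
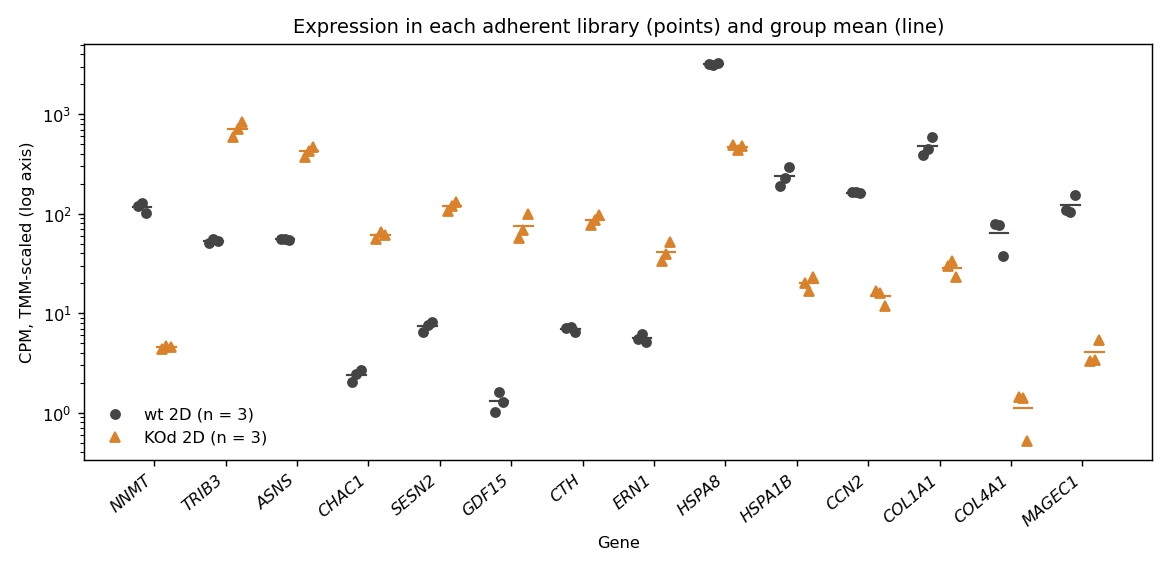
CPM (log axis) of 14 genes in each adherent library, with points for the 3 wild-type and 3 KOd libraries and a line at each group mean. In all 14 genes the groups lie apart, from NNMT (102 to 128 CPM against 4.39 to 4.64) to HSPA8 (3103 to 3279 CPM against 435 to 487).

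The listed targets of ATF4 and of amino acid shortage rose together. Of 30 listed genes, all of them tested, 27 rose and 0 fell, against 22.1% and 22.5% of all genes. Their median log2 fold change was 1.67, against 0.01 over all tested genes, and the summed level of the list went from 4329 to 4616 CPM in wild type to 10029 to 11669 in KOd. ATF5 (-0.25), ALDH1L2 (-0.20) and SLC38A2 (0.23) did not pass. The list was chosen with earlier results of these data known, so its count describes the libraries and is not independent evidence. With each of the 6 libraries left out in turn the count of rises stayed at 27.

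Regulators of the response rose at several levels. ATF4 mRNA, which is controlled mainly in translation, went from 230, 226 and 220 CPM in wild type to 417, 401 and 426 in KOd, a log2 fold change of 0.88 ± 0.09 (adjusted p = 7.7e-07). CEBPG, a partner of ATF4 in DNA binding, had 44.3, 43.1 and 42.1 CPM against 153, 158 and 170, a change of 1.89 ± 0.09 (adjusted p = 5.6e-11). DDIT3, which encodes the transcription factor CHOP, had 14.8, 15.6 and 10.1 CPM against 133, 149 and 173, a change of 3.49 ± 0.23 (adjusted p = 2.5e-09). The change at DDIT3 was thus far larger than that of ATF4 mRNA itself. ATF3, another stress-induced factor, rose by 3.27, and TRIB3, a pseudokinase that restrains ATF4 and CHOP, had 50.2, 55.4 and 53.2 CPM against 586, 704 and 842, a change of 3.75 ± 0.13 (adjusted p = 1.3e-12). NUPR1 (2.96), CEBPB (1.02) and DDIT4 (1.68), an inhibitor of mTORC1, rose as well, as did SESN2 (4.01), a leucine sensor of the same pathway.

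Target genes that import amino acids or make them rose with the regulators. ASNS, asparagine synthetase, had 55.9, 55.1 and 54.5 CPM in wild type and 374, 425 and 467 in KOd, a log2 fold change of 2.94 ± 0.19 (adjusted p = 2.3e-09). An overlapping readthrough gene can share reads with ASNS, and the counting rule for such reads is not given in the sources used here. PSAT1 of serine synthesis had 91.5, 89.8 and 102 CPM against 385, 422 and 472, a change of 2.18 ± 0.17 (adjusted p = 1.6e-08). Its pathway neighbours PHGDH (1.72 ± 0.26) and PSPH (1.62 ± 0.09) rose less, with wild-type replicate C of PHGDH at 80.1 CPM above the other wild-type libraries at 50.5 and 50.7. Among the carriers, SLC7A11, the cystine importer, rose by 2.15, its partner SLC3A2 by 1.78, SLC7A5, which carries large neutral amino acids, by 1.65, SLC1A4 by 3.03, SLC1A5 by 0.98 and the cationic carrier SLC7A1 by 0.44. CHAC1, which breaks down glutathione, stood at 2.05, 2.42 and 2.71 CPM against 55.5, 65.6 and 60.8. FGF21, a secreted hormone under ATF4 control, had 3 counts over the wild-type libraries and 635 over KOd, a ratio of 194 (95% counting interval 66.2 to 944).

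Promoters of the genes in this list were searched for the element TGATGNAA on both strands, since members of the list moved together. RefSeq promoter sequences (GRCh38.p14, from 250 bases before to 50 after the start) were matched for 23 of the 30 genes. Of these 6 held the element (26.1%), against 1.95% of 12494 promoters of tested genes and 3.67% of all 27305 promoters. The matches of SLC3A2 and SLC7A1 lay after the start. The other matches, chosen by that position, are shown in stretches of 120 bases upstream of the start of the gene, 5′ to 3′ on the gene's strand, with the element in capitals, because in these 4 genes the match lies before the start: CHAC1 (chr15:40953221-40953340, plus strand), ASNS (chr7:97872413-97872532, minus strand), ATF3 (chr1:212565160-212565279, plus strand) and FGF21 (chr19:48755404-48755523, plus strand).
CHAC1: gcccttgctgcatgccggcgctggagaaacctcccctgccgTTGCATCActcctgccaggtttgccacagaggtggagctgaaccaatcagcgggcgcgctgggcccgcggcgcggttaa
ASNS: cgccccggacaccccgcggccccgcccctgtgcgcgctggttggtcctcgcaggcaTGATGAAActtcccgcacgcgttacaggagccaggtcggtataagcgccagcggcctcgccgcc
ATF3: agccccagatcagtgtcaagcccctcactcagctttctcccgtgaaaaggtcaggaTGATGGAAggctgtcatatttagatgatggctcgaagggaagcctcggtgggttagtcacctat
FGF21: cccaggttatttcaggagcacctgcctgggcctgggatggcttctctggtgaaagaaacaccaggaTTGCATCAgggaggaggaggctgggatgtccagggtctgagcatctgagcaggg
In CHAC1 and FGF21 the element reads TTGCATCA, on the strand opposite to the gene. A match is a description of letters in this window and shows no binding. The list was made of targets of ATF4, which acts through such elements. A share above that of all promoters may therefore follow from how the list was chosen.

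The same list behaved otherwise in tumorspheres. In 3D, where neither group shares a library with the adherent comparison, 2 of 30 genes rose and 13 fell, against 16.5% and 17.5% of all genes, and the median was -0.23. The KOd effect differed between the cultures, with a lower value in 3D, for 27 of the 30 genes, against 14.7% of all genes. That test contains the same adherent libraries in which the list rose, so this count is not separate evidence. Of the 7280 genes that passed in 2D, 3461 also passed in that test, in either direction. TRIB3 had 77.8, 74.3 and 61.3 CPM in wild-type tumorspheres and 81.3, 84.6 and 86.8 in KOd tumorspheres, a log2 fold change of 0.24 (adjusted p = 0.11), and the difference from 2D was -3.50 (adjusted p = 7.4e-10). For ASNS the 3D change was -0.54, with 14.8, 17.8 and 13.3 CPM against 10.3, 11.8 and 9.56, and the difference from 2D was -3.47 (adjusted p = 8.4e-08). ASNS was thus lower in both groups of tumorspheres than in adherent wild type. PHGDH (-1.79), STC2 (-1.54), VLDLR (-1.80) and SLC7A1 (-1.36) fell in 3D and rose in 2D.

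In the labelled KOs libraries, which are set against the same wild-type libraries, 15 of the 30 genes rose and 3 fell, against 27.7% and 25.5% of all genes, with a median of 0.38. Side by side, the log2 fold changes in KOd and labelled KOs were 3.75 and 1.14 for TRIB3, 4.66 and 1.64 for CHAC1, 2.94 and 0.20 for ASNS, 3.49 and 0.59 for DDIT3 and 2.18 and -0.25 for PSAT1. Compared directly, KOd was higher than labelled KOs for 27 of the 30 genes and lower for 1. Of all genes 28.8% were higher and 30.7% lower (59.6% in either direction). The direct comparison contains the same KOd libraries in which the list rose, so this count is not separate evidence. Of the 7280 genes that passed in KOd against wild type, 4541 passed against labelled KOs in the same direction. The direct difference of TRIB3 was 2.61 (adjusted p = 2.1e-11), and depth and ribosomal RNA share, which differ between these pools, cannot be told apart from the pool.

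**Figure D3:**
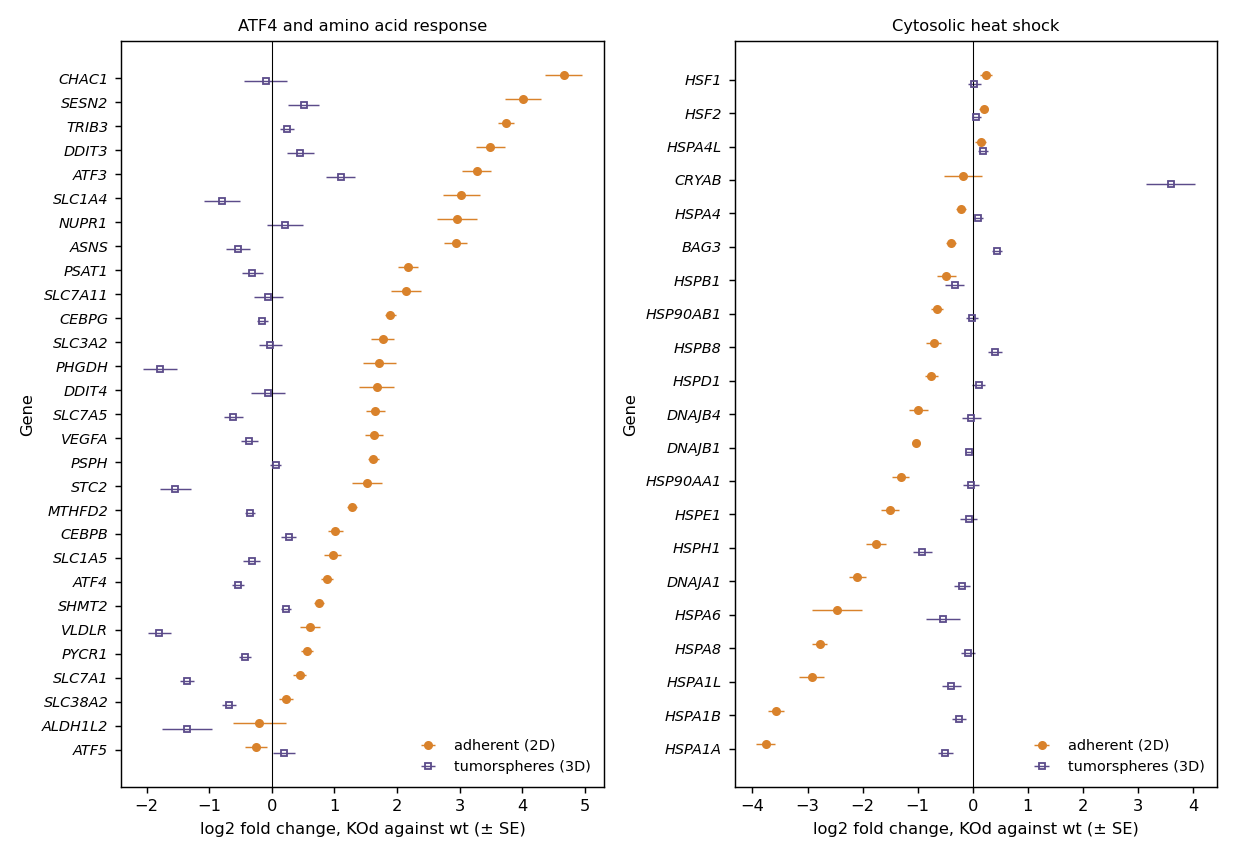
Log2 fold changes of KOd against wild type (± SE of the model) for 29 genes of the ATF4 list (FGF21, whose tumorsphere libraries have too few counts, is left out) and 21 genes of the list named cytosolic heat shock, in adherent cells (filled circles) and tumorspheres (open squares). Adherent values reach 4.66 for CHAC1 and -3.75 for HSPA1A. In tumorspheres the medians of the full lists were -0.23 and -0.03. There 2 of 30 ATF4 genes rose and 13 fell, and 3 of 21 heat shock genes rose and 2 fell.

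Serine, folate and sulfur amino acid metabolism overlapped with that response. Of 14 genes in the list of serine and folate metabolism, 7 rose and 1 fell, against 22.1% and 22.5% of all genes. MTHFD2, the mitochondrial folate enzyme, had 221, 212 and 214 CPM in wild type and 486, 524 and 559 in KOd, a log2 fold change of 1.28 ± 0.08 (adjusted p = 1.7e-09). SHMT2 rose by 0.76 ± 0.08, and TYMS, thymidylate synthase, fell by 0.61 ± 0.15. Both enzymes of transsulfuration, which turns homocysteine into cysteine, rose. CTH had 7.17, 7.27 and 6.43 CPM against 77.1, 86.3 and 96.5, a change of 3.64 ± 0.20 (adjusted p = 3.7e-10), and CBS had 14.9, 15.2 and 17.5 CPM against 70.4, 81.1 and 87.7, a change of 2.33 ± 0.31 (adjusted p = 1.1e-05). In tumorspheres the changes were 0.18 for CTH and -0.02 for CBS, and the differences between the cultures, -3.46 and -2.35, passed (adjusted p = 1.4e-07 and 5.7e-04).

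Genes of the methyl donor cycle next to NNMT's own reaction changed in both directions. In the list of methionine, S-adenosylmethionine and polyamine metabolism, 5 of 25 tested genes rose and 9 fell, against 22.1% and 22.5% of all genes, and scaling by library totals alone gave 8 rises and 5 falls. With any 1 of the 6 libraries left out, 6 to 8 genes fell. MAT2A, the main S-adenosylmethionine synthetase of such cells, had 222, 216 and 200 CPM in wild type and 124, 102 and 83.7 in KOd, a log2 fold change of -1.04 ± 0.16 (adjusted p = 3.5e-05). AHCY, which removes the product S-adenosylhomocysteine, had 349, 358 and 352 CPM against 364, 381 and 384 and did not pass, with a change of 0.09 ± 0.06. MTR, methionine synthase, and MTRR did not pass either. Among methyltransferases that use the same donor, GAMT (-1.06) fell and PEMT (0.77) rose, and of the polyamine genes AMD1 (-0.56) and SMS (-0.51) fell while SAT1 (0.86) rose.

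Of 23 tested genes of NAD and nicotinamide metabolism, 6 rose and 8 fell, NNMT among the latter, against 22.1% and 22.5% of all genes. NAMPT, the rate-limiting enzyme of NAD salvage from nicotinamide, had 140, 134 and 128 CPM in wild type and 156, 154 and 220 in KOd, a change of 0.40 ± 0.13 (adjusted p = 0.019) in which KOd replicate C stood apart. The NAD synthases NMNAT1 (0.93), NMNAT2 (0.90) and NMNAT3 (0.64) and the mitochondrial deacylase SIRT3 (0.55) rose. AOX1, which oxidizes the product of NNMT, had 261, 239 and 272 CPM against 97.9, 90.1 and 96.3, a change of -1.44 ± 0.18 (adjusted p = 4.4e-06). PNP (-1.18), NAPRT (-1.34), the ectonucleotidase NT5E (-0.55), PARP1 (-0.51) and NADSYN1 (-0.40) fell. SIRT1 and SIRT2 did not pass. The number of rises was 2 without wild-type replicate C and 3 without KOd replicate C. NAMPT did not pass without either of these, NMNAT2 did not pass with any of the 6 libraries left out, and NMNAT3 did not pass without wild-type replicate B or C or KOd replicate B.

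Enzymes that place or remove chromatin methyl marks changed in both directions. Of 13 genes around H3K27 methylation 5 rose and 5 fell, of 17 around H3K9 methylation 3 rose and 9 fell, and of 14 around DNA methylation 5 rose and 6 fell, against 22.1% and 22.5% of all genes. EZH2, the H3K27 methyltransferase, had 45.8, 45.4 and 53.4 CPM in wild type and 84.2, 87.2 and 88.9 in KOd, a change of 0.85 ± 0.15 (adjusted p = 1.7e-04). The opposing demethylase genes KDM6B (1.07) and KDM6A (0.61) rose too, while MTF2 (-0.69) and EED (-0.51) of the same complex fell. For H3K9, the methyltransferase genes SUV39H1 (-0.88) and EHMT2 (-0.58) fell, SETDB2 (1.14) rose, and the demethylase gene KDM4A (1.19) rose. Among DNA methylation genes TET1 fell by 1.68, DNMT3B by 1.36 and UHRF1 by 1.19, and DNMT1, with 241, 246 and 246 CPM against 218, 186 and 192, did not pass. The number that fell for H3K27 was 2 with scaling by library totals alone, and 3 without wild-type replicate A or KOd replicate B. Methylation itself was not measured in these libraries.

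The unfolded protein response list had members that rose and members that fell. Of 21 genes 11 rose and 5 fell, against 22.1% and 22.5%. The sensor gene ERN1, which encodes IRE1, had 5.53, 6.22 and 5.18 CPM in wild type and 33.6, 39.1 and 51.6 in KOd, a log2 fold change of 2.88 ± 0.19 (adjusted p = 3.2e-09). Its downstream factor XBP1 rose by 1.67 ± 0.11, HERPUD1 of protein degradation by 1.74 ± 0.12 and the co-chaperone gene DNAJB9 by 1.99 ± 0.20. The chaperone gene HSPA5 rose by 0.49, a call lost without wild-type or KOd replicate C, while the folding genes HSP90B1 (-0.59), CALR (-0.49) and PDIA4 (-0.44) and the translocon subunit gene SEC61B (-0.53) fell. In tumorspheres 3 of the 21 genes rose and 7 fell, against 16.5% and 17.5% of all genes there, and XBP1 was among those that fell (-0.65).

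Genes of inflammatory signalling rose more often than they fell. Of 24 tested NF-kB targets and cytokines, 13 rose and 3 fell, against 22.1% and 22.5%, with a median log2 fold change of 0.82. IL1A had 1.46, 1.38 and 0.863 CPM in wild type and 8.37, 9.94 and 15.3 in KOd, a change of 3.17 ± 0.32 (adjusted p = 4.4e-07), and IL6 had 1.17, 1.79 and 1.26 CPM against 6.66, 6.53 and 10.1, a change of 2.46 ± 0.29 (adjusted p = 2.8e-06). The regulators NFKB2 (1.03) and TNFAIP3 (0.93) rose. PTGS2, prostaglandin synthase, fell from 0.659, 0.820 and 2.35 CPM to at most 0.138, and CCL20 (-0.72) fell as well from a low level. Interferon-stimulated genes did not move one way, with 6 of 38 up and 6 down, among them XAF1 (2.57) and IRF1 (1.54) that rose and OAS3 (-1.16) and USP18 (-1.13) that fell. Without the 3 libraries of other groups that stand apart from their replicates (labelled KOs 2D A, wild-type 3D C and KOd 3D C), 14 interferon-stimulated genes rose and 13 fell. In that run 4838 of all 16167 tested genes rose and 4821 fell.

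Genes of the list named cytosolic heat shock fell together. Of 21 genes, all of them tested, 16 fell and 1 rose, against 22.5% and 22.1%, with a median log2 fold change of -0.99. HSPA8, the constitutive HSP70 chaperone, had 3205, 3103 and 3279 CPM in wild type and 487, 435 and 474 in KOd, a change of -2.78 ± 0.14 (adjusted p = 1.7e-10). The inducible copies HSPA1A (-3.75 ± 0.17) and HSPA1B (-3.57 ± 0.14) are nearly identical and can share reads, so their separate values are uncertain. HSPA1B stood at 190, 231 and 292 CPM against 20.1, 16.8 and 23.2. In these 3 genes the KOd libraries lay far below every wild-type library. DNAJA1, a co-chaperone of HSP70, had 294, 265 and 298 CPM against 78.3, 63.5 and 58.3, a change of -2.10 ± 0.15 (adjusted p = 1.0e-08). HSPH1 (-1.76), HSP90AA1 (-1.31), DNAJB1 (-1.03) and HSP90AB1 (-0.65) fell as well. So did HSPE1 (-1.51) and HSPD1 (-0.75), mitochondrial chaperonin genes that the list holds despite its name. HSF1 did not pass (0.24 ± 0.11), and HSF2, the only member that rose, changed by 0.20 ± 0.08 (adjusted p = 0.044) and no longer passed without any 1 library other than wild-type replicate C.

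Heat shock elements, spelled here as GAA, NN, TTC, NN and GAA in a row, were searched on both strands in the promoters of 19 matched genes of this list, and 3 held one (15.8%), against 0.36% of 12494 promoters of tested genes. The list was made of heat shock genes, so a share above that of tested genes may follow from that choice. The match of DNAJA1 lay after the start. HSPA8 held a pair, 1 of them 55 bases before the start, and HSPA6, a gene under 1 CPM in all 6 libraries that fell by 2.46, held 1. Both are shown in the 120 bases around the match before the start, with the element in capitals, as examples of the site that HSF1 binds: HSPA8 (chr11:123062137-123062256, minus strand) and HSPA6 (chr1:161524412-161524531, plus strand).
HSPA8: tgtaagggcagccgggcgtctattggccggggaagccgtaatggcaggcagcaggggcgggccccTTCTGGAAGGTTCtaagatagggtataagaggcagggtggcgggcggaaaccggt
HSPA6: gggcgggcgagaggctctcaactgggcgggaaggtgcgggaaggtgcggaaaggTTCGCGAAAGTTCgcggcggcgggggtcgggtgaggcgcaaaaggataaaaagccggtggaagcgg

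The falls of this list were not seen to the same extent in tumorspheres. There 3 of 21 heat shock genes rose and 2 fell, against 16.5% and 17.5% of all genes, with a median of -0.03. The difference between the cultures passed with a higher value in 3D for 16 of 21 genes, against 14.4% of all genes. That difference again contains the adherent libraries in which the list fell, so this count is not separate evidence. HSPA8 had 2078, 2121 and 1671 CPM in wild-type tumorspheres and 1715, 1962 and 1873 in KOd tumorspheres, a change of -0.08 (adjusted p = 0.67), and its difference from 2D was 2.70 (adjusted p = 2.7e-08). The adherent KOd libraries thus held the lowest HSPA8 levels of these 4 groups. In the labelled KOs libraries 6 genes of the list rose and 6 fell, against 27.7% and 25.5% of all genes there, and HSPA8 changed by 0.33 (adjusted p = 0.041), against -2.78 in KOd.

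Genes of glycolysis fell by modest amounts in most members. Of 23 genes 19 fell and 2 rose, against 22.5% and 22.1%, with a median log2 fold change of -0.68. ALDOC had 7.06, 6.56 and 10.4 CPM in wild type and 0.515, 0.593 and 0.414 in KOd, a change of -3.97 ± 0.34 (adjusted p = 7.0e-08). ENO2 fell by 1.48, PFKM by 0.78 and TPI1 by 0.74, while the glucose carriers SLC2A1 (0.35) and SLC2A3 (0.69) were the 2 members that rose, and neither passed without wild-type replicate B. SLC2A1 also lost its call without wild-type replicate A or KOd replicate B, and SLC2A3 without KOd replicate C. The hypoxia response list, which shares some of these genes, had 13 of 20 fallen and 2 risen, with 1 risen without wild-type replicate A or B or KOd replicate B. EGLN3, an oxygen sensor induced by HIF, had 44.1, 41.4 and 42.5 CPM against 11.9, 11.3 and 8.66, a change of -2.01 ± 0.20 (adjusted p = 4.0e-07). CA12 (-1.23), BNIP3 (-0.95) and ERO1A (-0.89) fell, and VEGFA, which is also a member of the ATF4 list, rose from 82.9, 88.6 and 77.1 CPM to 229, 247 and 294. In tumorspheres 4 of 23 glycolysis genes rose and 5 fell, near the 16.5% and 17.5% of all genes there.

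Genes of cell division were lower in the pool. Of 30 mitosis genes 22 fell and 0 rose, against 22.5% and 22.1%, with a median of -0.64, and 29 of the 30 had groups that did not overlap, against 62.7% of all genes. KIF20A, a kinesin of cytokinesis, had 268, 258 and 295 CPM in wild type and 90.1, 76.7 and 69.0 in KOd, a change of -1.80 ± 0.12 (adjusted p = 5.0e-09). ANLN (-1.50), DLGAP5 (-1.34) and PTTG1 (-0.92) followed. Of 28 DNA replication genes 17 fell and 1 rose, and 0 rose with any of the 6 libraries left out. FEN1, a nuclease of lagging strand synthesis, had 161, 149 and 168 CPM against 42.6, 35.2 and 30.9, a change of -2.14 ± 0.22 (adjusted p = 5.1e-07), and the cyclin genes CCNE2 (-1.71) and CCNE1 (-1.55), MCM6 (-0.98) and CCND1 (-1.11) fell. In tumorspheres 19 of 30 mitosis genes and 3 of 28 replication genes fell, against 17.5% of all genes, and 0 of either list rose, against 16.5%. Bulk RNA cannot tell fewer dividing cells from less of these transcripts in each cell.

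Extracellular matrix genes fell more often than they rose. Of 28 tested collagen genes 16 fell and 1 rose, against 22.5% and 22.1%, with a median log2 fold change of -1.03, and only COL15A1, under 1 CPM in all 6 libraries, rose. COL15A1 passed without KOd replicate A but not without any of the other 5 libraries. COL1A1, a chain of fibrillar type I collagen, had 388, 447 and 591 CPM in wild type and 29.6, 33.7 and 22.9 in KOd, a change of -4.05 ± 0.23 (adjusted p = 5.2e-10). COL12A1 had 365, 332 and 564 CPM against 42.9, 38.5 and 35.3, a change of -3.43 ± 0.35 (adjusted p = 4.6e-07). Wild-type replicate C was the highest library for both of these genes and the lowest for COL4A1 and COL4A2. In tumorspheres 19 of the 28 collagen genes fell and 3 rose, against 17.5% and 16.5% of all genes there, with COL1A1 at -5.80 and COL4A1 at -3.75. In labelled KOs 2D, 18 fell and 3 rose, against 25.5% and 27.7% of all genes there, and the changes were -4.52 for COL1A1, -2.11 for COL4A1 and -0.93 for COL4A2. Compared directly, KOd was lower than labelled KOs by 3.73 for COL4A1 (adjusted p = 2.1e-07), while COL1A1 did not pass (0.48, adjusted p = 0.055).

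Other parts of the matrix followed, read against 22.5% of all genes that fell and 22.1% that rose. Of 31 matrix glycoproteins and proteoglycans 14 fell and 2 rose, with 1 rise without wild-type replicate A or C. SPARC, a collagen-binding glycoprotein, had 863, 819 and 903 CPM in wild type and 312, 325 and 281 in KOd, a change of -1.49 ± 0.16 (adjusted p = 1.0e-06), and SDC2 (-2.73), the proteoglycan gene GPC1 (-1.39) and VCAN (-1.30) fell. Of 18 collagen modifying enzymes 9 fell and 1 rose (0 rose without wild-type replicate C), with the crosslinking enzyme LOX at 22.4, 21.8 and 37.7 CPM against 4.12, 5.83 and 4.80 (-2.47 ± 0.32) and P4HA2 (-0.64), PLOD2 (-0.52) and P3H1 (-0.46) also lower. Of 16 integrin genes 8 fell and 2 rose, and 1 rose with any of the 6 libraries left out. ITGB3 (-1.11), ITGB1 (-0.74), ITGAV (-0.60) and ITGA5 (-0.51) fell, and ITGB4, the laminin receptor subunit of hemidesmosomes, rose from 19.8, 20.6 and 11.8 CPM to 110, 116 and 125.

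Listed genes of the YAP, Wnt and BMP pathways fell more often than they rose. Among all genes 22.5% fell and 22.1% rose. Of 25 targets of the mechanosensitive coactivators YAP and TAZ 13 fell and 5 rose. CCN2 had 164, 165 and 160 CPM in wild type and 16.6, 16.0 and 11.8 in KOd, a change of -3.46 ± 0.23 (adjusted p = 3.2e-09), and CCN1 had 282, 279 and 292 CPM against 58.8, 65.8 and 51.3, a change of -2.28 ± 0.14 (adjusted p = 1.3e-09). Both are secreted matrix-associated proteins, and the 2 groups lay far apart in each. CRIM1 (-1.30) and AMOTL1 (-0.71) fell, while GADD45A, which is also induced by cell stress, rose by 2.05. In labelled KOs CCN2 and CCN1 changed by -0.25 and -0.04, and neither passed (adjusted p = 0.31 and 0.81). The list as a whole was lower there too. Of its 25 genes 12 fell and 0 rose in labelled KOs, against 25.5% and 27.7% of all genes. The median was -0.35 in labelled KOs and -0.41 in KOd. Of 30 Wnt ligands, inhibitors and targets 14 fell and 2 rose, with WNT5A (-2.12), the transcription factor LEF1 (-1.96), WNT7B (-1.46) and LGR4 (-1.40) lower and TCF7L2 (0.87) and ROR1 (0.53) higher. Of 21 genes of BMP signalling 9 fell and 1 rose, among them the ligand BMP4 (-2.55) and its antagonist NOG (-1.18), while SMAD7 (0.82) rose. In labelled KOs 11 of the Wnt genes fell and 3 rose, and 5 of the BMP genes fell and 4 rose.

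Genes of growth factor and glucocorticoid receptor signalling moved in both directions. Of 16 genes of the EGFR family and its ligands 6 rose and 2 fell, against 22.1% and 22.5% of all genes, with 1 fall without KOd replicate C. EGFR had 118, 111 and 110 CPM in wild type and 178, 190 and 219 in KOd, a change of 0.79 ± 0.10 (adjusted p = 5.2e-06), and its ligand AREG rose by 2.46 while NRG1 fell by 1.89. Of 25 genes of ERK feedback and FGF response 9 rose and 7 fell, against the same shares. ETV5 (1.64), PHLDA1 (1.77), FGF2 (1.63) and the phosphatase gene DUSP6 (2.19), which ERK signalling induces, rose, and SPRY1 (-1.99) and FGFR1 (-0.39) fell. Among genes of the glucocorticoid receptor, to which hydrocortisone in the adherent medium binds, 12 of 23 rose and 5 fell, against the same shares. The receptor gene NR3C1 rose by 0.88 ± 0.08, and its target TSC22D3 had 157, 162 and 136 CPM against 662, 671 and 607, a change of 2.09 ± 0.40 (adjusted p = 3.3e-04).

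Lipid and metal genes gave smaller or less certain counts, read against 22.5% of all genes that fell and 22.1% that rose. Of 32 genes of sterol and fatty acid synthesis 11 fell and 1 rose, although 30 had groups that did not overlap, against 62.7% of all genes. The count of falls was 27 without the 3 libraries of other groups that stand apart, and 28 when only the 6 libraries were fitted. More genes fell in these 2 runs as a whole, 4821 of 16167 and 4494 of 14139, against 3669 of 16323 in the main run. The list's count of falls was 7 without KOd replicate C. SREBF1, a transcription factor of lipid synthesis, rose by 0.99. Of 12 genes of lipid export 4 rose and 0 fell. The count of rises was 7 without the 3 libraries that stand apart, where 4838 of 16167 tested genes rose. It was 3 with any 1 of the 6 libraries left out. Among the genes that rose were the cholesterol exporters ABCA1 (2.56 ± 0.59) and ABCG1 (3.52 ± 0.71), with wide errors. ABCA1 stood at 13.5, 12.8 and 11.7 CPM against 64.6, 63.8 and 95.3. Of 9 metallothionein and zinc genes 5 fell and 1 rose (0 rose without wild-type replicate A or KOd replicate C), with MT2A, which binds metal ions, at 942, 1009 and 974 CPM against 405, 372 and 332.

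**Figure D4:**
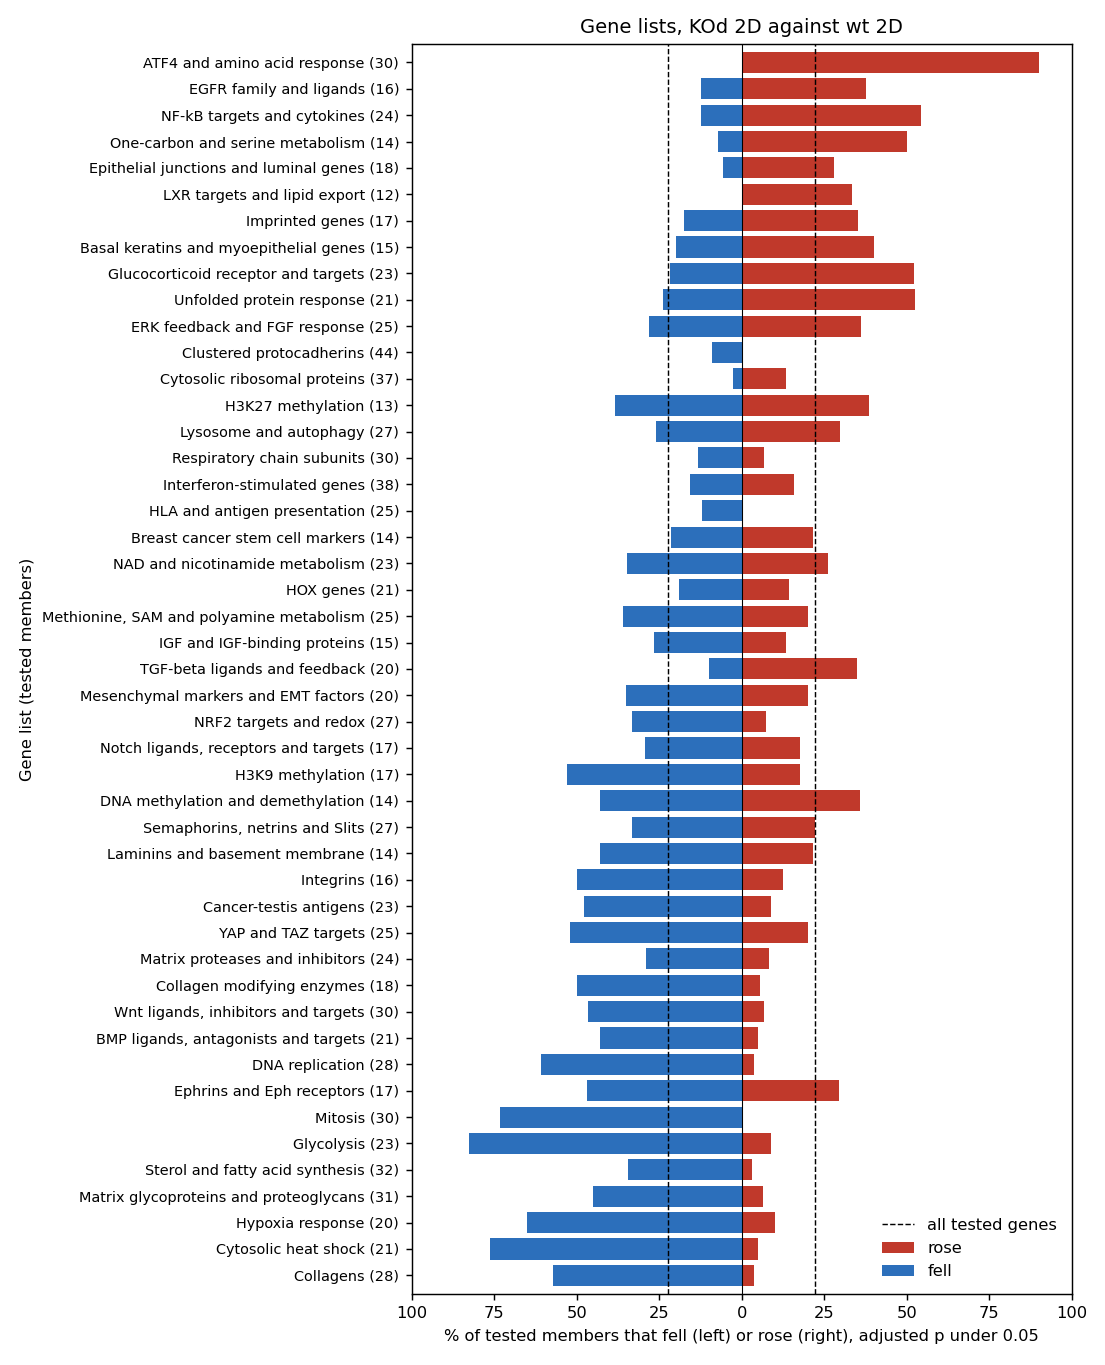
Share of tested members that fell (left) or rose (right) in KOd 2D against wt 2D, for the gene lists described here and others with at least 12 tested genes, ordered by median log2 fold change; the number of tested members is in brackets and dashed lines mark all tested genes (22.5% and 22.1%). The ATF4 list has 27 of 30 genes up, and glycolysis, heat shock and mitosis have 19 of 23, 16 of 21 and 22 of 30 down.

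Several groups stayed near or below the background. Of 37 cytosolic ribosomal protein genes 5 rose and 1 fell, and 12 rose with scaling by library totals alone. That count of rises was 1 without wild-type replicate B or C or KOd replicate B or C, and 2 without wild-type replicate A. Of 30 respiratory chain subunits 2 rose and 4 fell, while library totals alone gave 8 rises and 2 falls, and the rises were 0 without wild-type replicate C and 1 without KOd replicate B. Of 25 genes of HLA and antigen presentation 3 fell and 0 rose (1 rose without KOd replicate B). Of 44 clustered protocadherin genes 4 fell and 0 rose, but 21 of 42 rose without the 3 libraries that stand apart. In that run 4838 of 16167 tested genes rose. The shares of the main run compare with 22.1% and 22.5% of all genes.

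Identity genes of the line moved in both directions. Of 18 tested genes of epithelial junctions and luminal cells 5 rose and 1 fell, against 22.1% and 22.5% of all genes. CLDN1, with 2.09, 2.38 and 3.53 CPM in wild type and 24.0, 31.2 and 55.9 in KOd, and GATA3 (1.95), a luminal transcription factor, rose, and the keratin gene KRT18 fell by 0.46. Of 15 tested basal and myoepithelial genes 6 rose and 3 fell. TP63, a basal factor, had 6.70, 6.41 and 8.87 CPM against 42.7, 36.9 and 47.2 (2.53 ± 0.25), while SFN fell from 128, 132 and 175 CPM to 42.5, 40.9 and 52.2 (-1.68 ± 0.18) and the keratin gene KRT81 by 2.69. Of 20 tested mesenchymal markers 7 fell and 4 rose. S100A4 fell by 1.41 and CDH2, the neural cadherin gene, by 0.50, while ZEB1 (0.47) and TWIST1 (0.50) rose. Among markers used for breast cancer stem cells 3 of 14 tested rose and 3 fell, near the 22.1% and 22.5% of all genes. KLF4 had 11.6, 15.1 and 13.5 CPM against 84.1, 89.7 and 106.9 (2.80 ± 0.15), and BMI1 rose by 0.50. ITGA6 (-0.42), NT5E (-0.55) and ALDH1A2 (-3.97, under 1 CPM in all 6 libraries) fell.

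Some genes were present in one group and nearly absent in the other. Genes under 0.1 CPM in all 3 libraries of one group and at 1 CPM or more in all 3 of the other numbered 9 that appeared in KOd and 19 that disappeared. LHFPL3 and its antisense gene LHFPL3-AS2 had 2 and 1 counts over wild type and 1437 and 283 over KOd, and reads of the pair may not be separated, since the strand setting of the counting is not given in the sources used here. TSHZ3, a homeobox factor, had 2 counts against 477, and JAM3, a junctional adhesion gene, 1 against 331. In the other direction BEX1 had 3944 counts in wild type and 1 in KOd, B3GALNT1 720 against 2, and the coagulation factor gene F10 832 against 4. BEX3 had 555 counts against 0, at least 202-fold lower with a floor of 3 counts over the group. The near-identical X-linked copies GAGE12C and GAGE12E both had 223 counts against 2, so their reads cannot be assigned to a copy. All 19 genes that disappeared were also lower in labelled KOs 2D than in wild type, where 25.5% of all genes fell. BEX1 was at -13.65, B3GALNT1 at -7.86, F10 at -8.94 and BEX3 at -6.27. Both comparisons use the same wild-type libraries, by whose levels these genes were chosen, so the 2 are not independent. Of the genes that appeared, JAM3 (3.69), LINC00632 (8.46) and FLRT1 (1.98) also rose in labelled KOs. The others, LHFPL3, LHFPL3-AS2 and TSHZ3 among them, did not pass there. In the cancer-testis list 11 of 23 tested genes fell and 2 rose, against 22.5% and 22.1% of all genes. In labelled KOs 2D 5 of the 23 fell and 14 rose, against 25.5% and 27.7% of all genes there. In tumorspheres 9 fell and 10 rose, against 17.5% and 16.5%. MAGEC1 stood at 110, 103 and 155 CPM against 3.33, 3.42 and 5.38, and MAGEA11 at 22.0, 19.7 and 29.3 against 0.686, 0.872 and 0.552.

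The changes were not spread evenly over the genome. On chromosome 2, 430 of 1078 tested genes fell (39.9%) and 126 rose (11.7%), with a median log2 fold change of -0.25. On chromosome 13, which came next, 29.3% fell, and on chromosome 17, at the other end, 16.9%. The shift covered most of chromosome 2: in 23 of 25 bins of 10 Mb the median was below 0. In tumorspheres the median of chromosome 2 was -0.26, with 24 of 25 bins below 0, and in labelled KOs 2D it was 0.01. Copy number was not measured, and members of the lists above that lie on chromosome 2, such as MAT2A, COL4A4 and MTHFD2, were not adjusted for this shift. Among windows of 25 neighbouring genes the lowest median was -2.46 on chromosome X (49.3 to 52.4 Mb), where 17 genes fell. GAGE and XAGE genes lie there. Near-identical GAGE copies can share reads, so these 17 genes may not all be separate signals. The next lowest medians were -1.20 on chromosome 19 (42.4 to 43.7 Mb) and -1.08 on chromosome 2 (162.0 to 169.5 Mb). The highest were 1.44 on chromosome 12 (9.2 to 11.2 Mb), 0.84 on chromosome 16 (14.6 to 18.4 Mb) and 0.82 on chromosome 19 (50.4 to 51.9 Mb). In tumorspheres the medians of these windows were -3.98, 0.04 and -0.35 for the low ones and 0.13, 0.26 and 0.83 for the high ones. In labelled KOs 2D the medians were -3.63, 0.01 and -0.89 for the low windows and 0.05, -0.46 and 1.05 for the high ones. Coordinates are those of RefSeq on GRCh38.p14.

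**Figure D5:**
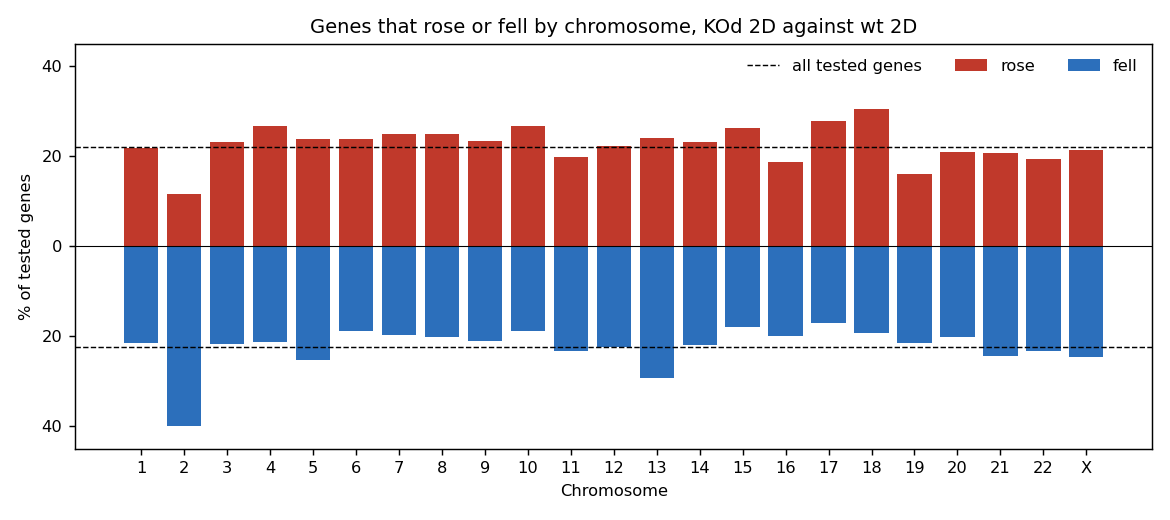
Share of tested genes on each chromosome that rose (upward) or fell (downward) in KOd 2D against wt 2D, with dashed lines at the shares of all tested genes; the Y chromosome, with 5 tested genes, is left out. Chromosome 2 stands apart with 39.9% fallen and 11.7% risen.

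Set against tumorspheres, which share no library with the adherent comparison, 5548 genes passed in 3D (34%). Of these, 2961 passed in both cultures, and 2396 of the 2961 (80.92%) moved the same way, with 1046 that rose in both and 1350 that fell in both. The 2396 genes are 32.91% of those that passed in 2D and 43.19% of those that passed in 3D. Another 565 genes moved in opposite directions. The KOd effect differed between the cultures for 4751 genes (29.1%). Of the 2266 genes with at least 2-fold changes in 2D, 1011 passed in 3D in the same direction, 122 in the other direction and 1133 did not pass there. NNMT, COL1A1, COL4A1, MAGEC1 and MAGEA11 were among those lower in both cultures, while ECM2 rose by 4.42 in 2D and fell by 2.84 in 3D.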

How the data were processed

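Per the labels, mRNA of 20 libraries was sequenced with stranded TruSeq kits, and per the submitters' processing notes STAR and hg38 were used. The counting tool, annotation and strand setting are not given in the sources used here. The authors deposited whole-number counts per Entrez gene, not normalized. Symbols matched 27740 of 27864 IDs.

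In R 4.3.3, edgeR 4.0.16 kept 16323 genes by filterByExpr and set TMM factors. Its quasi-likelihood test used all 20 libraries with a mean for each group (13 residual degrees of freedom, biological coefficient of variation 0.143) and was checked on simulated data. CPM use library sizes times those factors. Counting intervals are exact at 95% and cover counting error only, with a floor of 3 counts. Alternatives used DESeq2 1.42.0, limma-voom (3.58.1), other scaling, filters, thresholds and libraries left out.

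Named genes were NNMT and genes within 1 Mb, the 15 largest rises and falls among genes whose groups did not overlap and whose mean log2 CPM reached 2, genes switched between groups (up to 10 per direction), the 6 per direction that differed most from labelled KOs or between cultures, up to 4 genes per list and direction by adjusted p, and all genes of the NAD, methionine and methylation lists. Members of the ATF4, heat shock and other lists outside that rule were chosen after their values were seen. Comparison and lists were chosen with earlier results of these data known. Some items and 1 gene list are not reported here.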

Additional observations from a re-analysis of the deposited data

Results flagged for a closer look

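The effect of the KOd pool on 12 genes differed strongly between adherent cells and tumorspheres, by the test of the difference itself (edgeR's quasi-likelihood test, Benjamini-Hochberg adjusted over all genes). Values are the log2 fold change in 3D minus that in 2D. For ECM2 the difference was -7.26 (adjusted p = 2.2e-08), from 0.952, 1.16 and 1.18 CPM in wild type to 21.3, 25.3 and 24.1 in KOd in 2D, and from 5.30, 5.21 and 8.43 CPM to 0.703, 0.990 and 0.946 in 3D. ANKFN1 (-5.75) was likewise higher in KOd in 2D (2.04) and lower in 3D (-3.71). For INHBE the difference was -6.54, for RAB39B -4.99, for GDF15 -4.87 and for CHAC1 -4.76. GDF15 was already at 73.3, 64.5 and 54.4 CPM in wild-type tumorspheres, against 1.02, 1.60 and 1.29 CPM in adherent wild type.

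Higher values in 3D were held by APLN (5.38), ANKRD1 (5.29), MARCHF4 (4.71), RAB3B (4.43), PLD5 (3.99) and ENDOD1 (3.93). ENDOD1 had 30.0, 29.3 and 29.3 CPM in wild type and 6.35, 5.16 and 4.80 in KOd in 2D, and 7.46, 7.26 and 7.63 CPM against 21.3, 22.5 and 18.7 in 3D. In wild-type tumorspheres APLN, ANKRD1, MARCHF4, RAB3B and PLD5 stayed under 1 CPM, so the size of their fitted differences depends on few counts.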

How the results depend on the processing

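The 7280 genes that passed became 7481 with DESeq2, 7089 with limma-voom, 7249 with RLE normalization, 6925 with no filter on low counts, 7093 with at least 1 CPM in at least 3 libraries, 8820 with only the groups compared and 9659 without the libraries that stand apart. With 1 library left out it lay between 6213 and 6623 (rises 3071 to 3295, falls 3100 to 3328). The other counts then lay between 4448 and 5370 for KOd in 3D, 3898 and 4725 for the difference between cultures, 7641 and 9237 for labelled KOs, and 8858 and 10356 for KOd against labelled KOs. Asking for a 2-fold change or more, 2266 genes passed in KOd 2D (1216 rose, 1050 fell), 2113 in 3D, 1800 for the difference between cultures, 2745 in labelled KOs and 3570 for KOd against labelled KOs. At an adjusted p under 0.01, 2822 passed for the difference between cultures. These fall by construction, through the stricter thresholds. Replicate letters were not taken as pairs: same-letter deviations correlated with r = 0.0772, 0.00975 and 0.0719. A replicate block gave 7317 genes over all groups and 9286 over only the groups compared, and 5454 for labelled KOs over only the groups compared, where the cause was not tested. No named gene that passed in the main run or in an alternative run changed direction between the 2. Changes of sign in genes that passed in neither were not counted. COL15A1 and HTR3A, under 1 CPM in all 6 libraries, lost their calls with single libraries left out.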
